A study of Rattus norvegicus with 288 samples.

Results

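Mt2A, a metallothionein, and Slc39a8, a zinc importer, were followed in 288 microarrays of heart, kidney and liver from 96 male Sprague-Dawley rats. The pair is 2 of the 14218 genes named on the array, and it was chosen from measured values: Mt2A for its difference after oxaliplatin in liver at 24 h, and Slc39a8 with earlier results of the same arrays known. Each gene had 1 probe set, so the rule of taking the brightest probe set per gene and tissue left no choice. Mt2A (gene 689415) lies at chr19:10837934-10838708 and Slc39a8 (gene 295455) at chr2:226845686-226992668, both in GRCr8. Both genes passed the filter on low values in all 3 tissues.

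The rats were 8 weeks old. Each received an infusion over 30 min of oxaliplatin at 15 mg/kg or of D5W (a dextrose solution, the infusion vehicle), and then 1 of 4 oral doses. The oral doses were sterile water, F68 (a vehicle of Pluronic F68, propylene glycol and polyethylene glycol), sunitinib at 5 mg/kg or sorafenib at 25 mg/kg. Water served as the vehicle control for sunitinib, and F68 for sorafenib. Oxaliplatin is a platinum compound that binds DNA and proteins, and sunitinib and sorafenib inhibit receptor tyrosine kinases. Sampling at 1, 6 or 24 h made 24 groups per tissue, with 4 rats to a group. The groups given F68 or sorafenib were dosed on a later day than those given water or sunitinib. Vehicle and dosing day therefore cannot be told apart between F68 and water. The 24 h arrays also carried another code than the 1 h and 6 h arrays, so time and array set cannot be told apart between 24 h and the earlier times.

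All values are log2 intensities, and all differences are log2 differences given with the standard error (SE) of the fit. From the 24 h D5W then sorafenib groups, 2 arrays were left out because their tissue markers opposed their labels. On the liver-labelled array the kidney markers had a median of 13.09 and the liver markers 6.33, and on the kidney-labelled array the liver markers had a median of 14.44 and the kidney markers 7.55. All other arrays showed the markers of their labelled tissue highest. Among these, 1 kidney array at 24 h after D5W and sorafenib held albumin, a hepatocyte transcript, at 12.97, and results that rest on it are given with and without it. Each tissue was one extract of many cells, so fewer cells of a type and less RNA per cell cannot be told apart. A gene was called at an adjusted p under 0.05 in limma.

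Metallothioneins are small, cysteine-rich proteins that bind zinc, copper and cadmium, and their thiols also bind platinum drugs. Their genes are switched on when zinc activates the factor MTF-1, which binds metal response elements in their promoters, and liver metallothionein also responds to glucocorticoids and to the acute phase of inflammation. Slc39a8, also called ZIP8, carries zinc and manganese into the cytosol, and in liver it is known for reclaiming manganese from bile.

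The promoter sequences are shown because metallothionein genes are known for repeated metal response elements, and the members differ in them. The windows run from 250 bases before to 50 bases after the start listed by RefSeq (GRCr8). They lie at chr19:10838659-10838958 on the minus strand for Mt2A, at chr19:10832926-10833225 on the minus strand for Mt1, the neighbouring metallothionein, and at chr2:226929941-226930240 on the plus strand for Slc39a8. The Slc39a8 window lies inside the annotated span of the gene. Capitals mark the metal response element core (TGCACNC or TGCGCNC, on either strand).
Mt2A: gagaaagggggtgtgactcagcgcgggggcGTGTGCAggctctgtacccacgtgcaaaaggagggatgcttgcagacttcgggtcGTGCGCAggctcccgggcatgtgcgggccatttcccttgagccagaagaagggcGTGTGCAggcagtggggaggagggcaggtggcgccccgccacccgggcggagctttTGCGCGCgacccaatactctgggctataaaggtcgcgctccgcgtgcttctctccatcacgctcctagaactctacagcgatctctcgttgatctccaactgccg
Mt1: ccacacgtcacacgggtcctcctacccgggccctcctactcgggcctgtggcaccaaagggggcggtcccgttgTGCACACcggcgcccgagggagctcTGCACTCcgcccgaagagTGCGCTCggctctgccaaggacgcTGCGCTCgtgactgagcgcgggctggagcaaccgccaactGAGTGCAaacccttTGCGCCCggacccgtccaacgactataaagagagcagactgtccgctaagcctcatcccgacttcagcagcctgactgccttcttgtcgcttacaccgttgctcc
Slc39a8: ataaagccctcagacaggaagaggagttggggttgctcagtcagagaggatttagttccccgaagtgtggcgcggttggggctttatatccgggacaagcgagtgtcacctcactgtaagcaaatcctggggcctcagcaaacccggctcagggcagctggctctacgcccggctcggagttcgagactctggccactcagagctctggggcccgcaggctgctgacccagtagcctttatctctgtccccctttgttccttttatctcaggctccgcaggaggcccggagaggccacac
The Mt2A window held 4 cores, which began at -220, -165, -111 and -55 (the base before the start is -1), and the Mt1 window held 6. The Mt3 and Mt4 windows, of a brain-enriched and an epithelial metallothionein, held 3 and 1. Among 33469 RefSeq windows of the same length, 24.2% held at least 1 core and 0.439% held 4 or more. The Slc39a8 window held no core. An antioxidant response element core (TGACNNNGC), present in 12.1% of windows, was found once each in Mt2A, Mt1 and Slc39a8. A STAT site (TTCNNNGAA), present in 8.87%, was found once in Slc39a8. The glucocorticoid receptor core AGAACA, present in 20.7% of windows, matched none of these windows. No match shared a base with another, and a match describes letters only.

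Mt2A differed far more between livers than between kidneys or hearts. In liver the 95 arrays ran from 9.30 to 14.92 with a median of 13.37, a range of 49.1-fold. In kidney they ran from 13.47 to 14.57 with a median of 13.83, and in heart from 8.75 to 11.57 with a median of 9.48. Mt2A was thus narrowly spread in kidney, where its range was 2.15-fold. Slc39a8 ran from 9.95 to 11.50 in liver (median 11.06), from 9.86 to 11.28 in kidney (median 10.88) and from 6.38 to 8.73 in heart (median 7.36). Over the 24 group means of a tissue, which share arrays and scaling, the pair correlated at 0.656 for heart, at 0.599 for kidney and at -0.391 for liver.

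In liver, the lowest Mt2A means of all groups were those of vehicle rats at 24 h. The 4 livers given D5W and water had Mt2A values of 9.30, 9.38, 10.00 and 12.83, the lowest mean of the 24 liver groups (10.38 ± 1.66, SD, n = 4). The 4 given D5W and F68 had values of 9.32, 11.39, 11.97 and 12.17, the next lowest mean (11.21 ± 1.30, SD, n = 4). In both groups single rats lay more than 2 log2 units apart. Other vehicle rats, 8 at each time, had liver means of 12.17 at 1 h and 13.30 at 6 h. The 24 h mean was lower than the 6 h mean by 2.51 ± 0.49. This description carries no test because the 24 h rats are the controls of the choice.

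At 24 h liver Mt2A was higher after oxaliplatin than in these low vehicle livers. By its mean, oxaliplatin with F68 ranked 20 of the 24 liver groups (12.25) and oxaliplatin with water 9 (13.63). Oxaliplatin with sunitinib ranked 4 (13.95) and oxaliplatin with sorafenib 8 (13.715). The 8 livers given oxaliplatin and an oral vehicle had a mean of 12.94. At 24 h the livers given oxaliplatin and water had 12.87, 13.70, 13.76 and 14.19, all above the 4 livers given D5W and water. Those given oxaliplatin and F68 had 9.71, 11.23, 13.84 and 14.23 and overlapped the D5W and F68 livers, 2 of them lying above all of those. The difference over both vehicles was 2.15 ± 0.49 (n = 8 and 8, 4.42-fold), and 6.42% of all genes tested were called in that comparison. It is the value that chose Mt2A and carries no test. By oral vehicle it was 3.26 ± 0.70 with water and 1.03 ± 0.70 with F68.

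**Figure D1:**
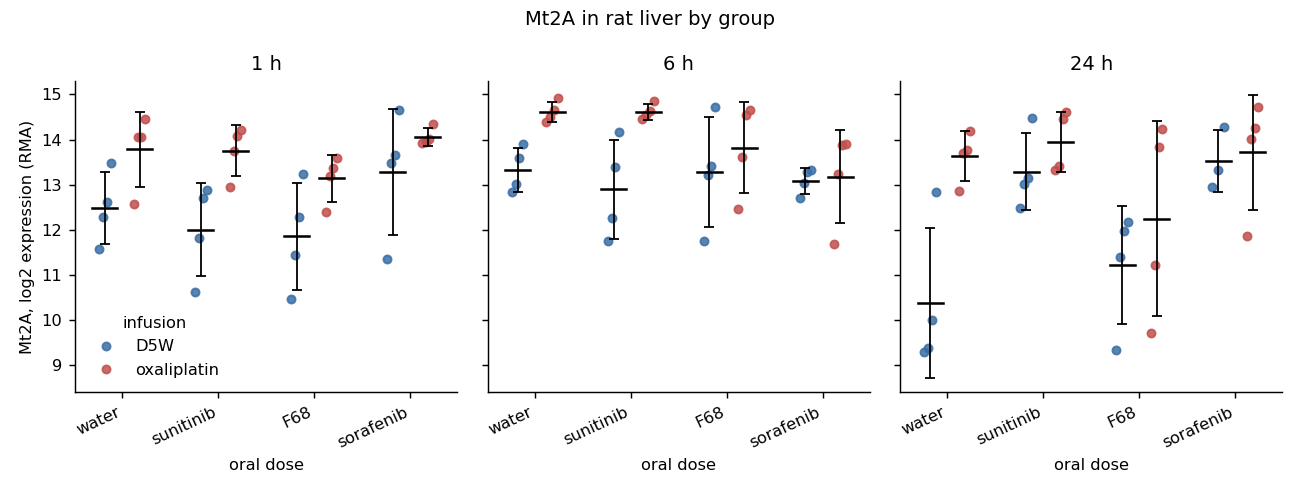
Mt2A in liver as log2 intensity (vertical axis) by oral dose (horizontal axis) at 1, 6 and 24 h, with D5W and oxaliplatin rats side by side. Each point is 1 array, and the bar and whiskers give the mean and SD of 4 rats, or of 3 for D5W then sorafenib at 24 h. The D5W then water and D5W then F68 livers at 24 h have the lowest means, 10.38 and 11.21.

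At the earlier times the same direction was measured without a call. At 1 h the 8 vehicle livers given D5W ran from 10.46 to 13.47 (median 12.29) and the 8 given oxaliplatin from 12.40 to 14.45 (median 13.48). The groups overlapped, with a difference of 1.29 ± 0.49 (adjusted p = 0.152, 3.46% of genes called). At 6 h the D5W livers ran from 11.75 to 14.72 (median 13.31) and the oxaliplatin livers from 12.47 to 14.92 (median 14.51), a difference of 0.91 ± 0.49 (adjusted p = 0.249, 10.4% called). Taken as single values, the differences had exact permutation p of 0.00979 at 1 h and 0.046 at 6 h. When all 4 oral doses were averaged, Mt2A was called at both times, by 1.27 ± 0.35 at 1 h (adjusted p = 0.0106) and by 0.91 ± 0.35 at 6 h (adjusted p = 0.0474). The share of all genes called is not given for this average, so these calls have no background beside them. The highest means of all liver groups were those of oxaliplatin with sunitinib and with water at 6 h, 14.62 and 14.61, which differed by less than their SDs of 0.17 and 0.23. The 4 livers of oxaliplatin and water at 6 h had 14.40, 14.49, 14.65 and 14.92.

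In kidney, where Mt2A was already high, oxaliplatin raised it at 24 h. The kidneys given D5W and water had 13.61, 13.68, 13.75 and 13.95, and those given D5W and F68 had 13.51, 13.54, 13.67 and 13.79. Those given oxaliplatin and water had 13.92, 13.95, 14.10 and 14.34, and those given oxaliplatin and F68 had 13.83, 14.06, 14.08 and 14.43. The groups of 8 touched between 13.83 and 13.95 and were otherwise separate. The difference was 0.40 ± 0.07 (1.32-fold, adjusted p = 0.000134, exact permutation p = 0.000466), in a comparison in which 7.80% of genes were called. With water alone it was 0.33 ± 0.11 (adjusted p = 0.0806). At 1 h and 6 h the difference was -0.06 and -0.09 (adjusted p = 0.74 and 0.45), where 9.41% and 20.6% of genes were called. The effect at 24 h exceeded that at 6 h by 0.49 ± 0.11 (adjusted p = 0.000595, 11.3% of genes called).

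In heart, Mt2A rose at 24 h after oxaliplatin. The hearts given D5W and water had 8.94, 8.97, 8.98 and 9.14, and those given D5W and F68 had 8.96, 9.13, 9.22 and 9.31. Those given oxaliplatin and water had 9.68, 9.81, 9.83 and 10.08, and those given oxaliplatin and F68 had 9.35, 9.35, 9.46 and 11.34. No oxaliplatin heart lay below a D5W heart, and this also held for all 16 against 16 hearts over the 4 oral doses (9.35 against 9.31 at the border). The difference was 0.78 ± 0.23 (1.72-fold, adjusted p = 0.00872, exact permutation p = 0.000155), and 19.2% of all genes were called in the comparison. Without the heart at 11.34 it was 0.54 (adjusted p = 0.0716). With F68 alone it was 0.72 ± 0.32 (adjusted p = 0.369), and with water alone 0.84 ± 0.32 (adjusted p = 0.0477). The D5W and water hearts at 24 h also had a higher difference between the 3′ and 5′ probe sets of beta-actin, a sign of RNA quality, at 0.71 to 0.805 against group means of 0.246 to 0.482 in the other 24 h hearts. With that difference as a covariate, Mt2A was higher by 0.89 ± 0.26 (adjusted p = 0.0104). At 1 h and 6 h the differences were 0.14 and 0.59 (adjusted p = 0.82 and 0.20), where 1.23% and 0.866% of genes were called.

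**Figure D2:**
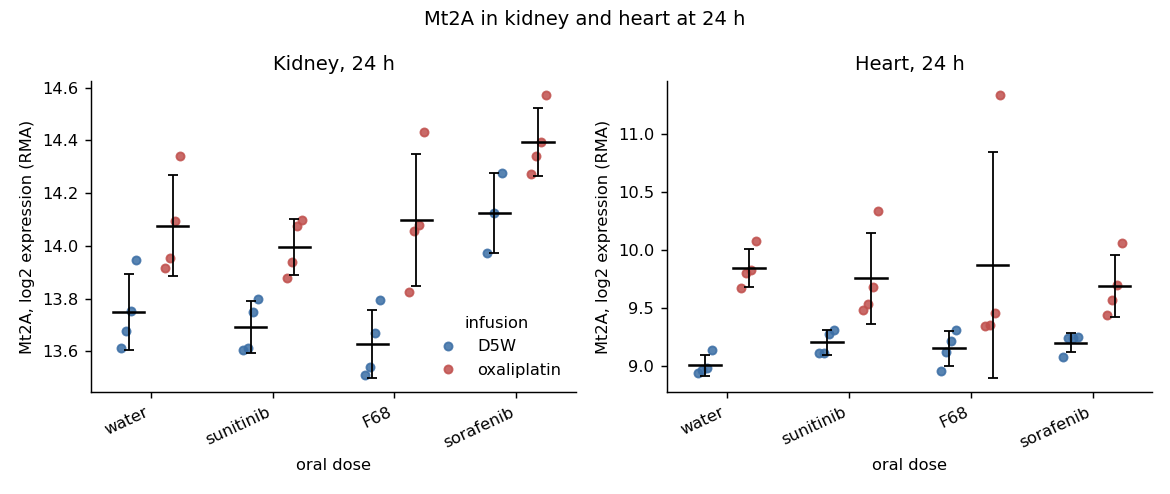
Mt2A in kidney and heart at 24 h as log2 intensity (vertical axis) by oral dose (horizontal axis), for D5W and oxaliplatin rats. Each point is 1 array, with the mean and SD of each group. In heart every oxaliplatin point is at or above 9.35 and every D5W point at or below 9.31; in kidney the oxaliplatin then sorafenib group, 14.27 to 14.57, has the highest mean.

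Some genes known as glucocorticoid targets rose at 1 h after oxaliplatin. At 1 h, 11 of 16 tested targets rose in kidney (median difference 0.55), 7 of 14 in heart (0.44) and 6 of 17 in liver (0.33), while 4.45%, 0.309% and 1.59% of all genes rose and the median over all genes was within 0.03 of 0. They included Tat, the tyrosine-degrading liver enzyme (1.07 ± 0.22, adjusted p = 0.000994, liver), and Per1, a clock repressor (0.91 ± 0.14, adjusted p = 1.61e-06, kidney). At 24 h, 5 of 14 rose in heart, 2 of 17 in liver and 1 of 16 in kidney, beside 14.5%, 1.73% and 5.61% of all genes, so the kidney count was at the background. The mean level of the tested targets at 24 h ran from 8.81 to 9.49 in D5W hearts and from 9.12 to 9.90 in oxaliplatin hearts. In liver it ran from 10.31 to 10.41 with D5W and water and from 10.19 to 10.46 with oxaliplatin and water. Livers given F68 ran from 9.91 to 10.14 after D5W and from 10.2 to 10.52 after oxaliplatin. In kidney it ran from 9.84 to 10.31 in D5W rats and from 10.05 to 10.57 in oxaliplatin rats. Acute phase and IL-6 targets at 24 h had 2 of 18 up in liver, Cxcl1 and Lbp, and 1 up and 2 down of 16 in heart. Their mean level in liver at 24 h ran from 12.04 to 12.12 with D5W and water, from 12.55 to 13.03 with oxaliplatin and water and from 12.13 to 13.32 with D5W and sunitinib. With D5W and F68 it ran from 12.22 to 12.77 and with oxaliplatin and F68 from 12.25 to 12.94. Livers given D5W and sorafenib ran from 12.3 to 12.94. The part of these lists in the Mt2A differences was not tested. Of the cell markers in liver at 24 h, 8 of 11 macrophage markers and 4 of 4 erythroid markers were lower after oxaliplatin, and the hepatocyte markers ran from 14.48 to 14.66 in D5W and from 14.42 to 14.70 in oxaliplatin livers. In kidney 3 of 10 macrophage markers (Aif1, Lyz2 and Csf1r) and 2 of 4 erythroid markers fell. In heart 5 of 5 erythroid markers, 1 of 11 macrophage markers, 1 of 2 neutrophil markers and Alb (-2.83 ± 0.86, adjusted p = 0.0125) fell, and of 9 endothelial markers 2 fell and 1 rose. Over all genes 4.69% fell in liver, 2.19% in kidney and 4.75% in heart at 24 h after oxaliplatin. The part of the cell markers in the Mt2A differences was not tested.

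Sunitinib after D5W went with higher Mt2A and lower Slc39a8 than water did in liver at 24 h. The 4 livers had Mt2A values of 12.48, 13.02, 13.15 and 14.49, of which 3 lay above the highest water control of 12.83. Their mean of 13.29 ranked 12 of the 24 liver groups, and the water controls ranked lowest. The difference was 2.91 ± 0.70 for Mt2A (7.52-fold) and -0.72 ± 0.14 for Slc39a8, the largest of the 27 single-drug comparisons for each gene, and 0.964% of genes were called there. Being the largest, both are given with no test. In the other sunitinib comparisons after D5W neither gene was called, with the lowest adjusted p at 0.288 for Mt2A and 0.155 for Slc39a8 over 8 comparisons each. The share of genes called at 1, 6 and 24 h was 10%, 0% and 25.4% in heart, 0.0244%, 0% and 0% in kidney, and 0% and 0% in liver at 1 and 6 h.

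Mt2A was higher after D5W and sorafenib than after D5W and F68 in liver and kidney at 24 h. The 3 sorafenib livers had 12.96, 13.33 and 14.28, all above the 4 F68 livers (9.32, 11.39, 11.97 and 12.17). The difference was 2.31 ± 0.75 (4.95-fold, n = 3 and 4), and 67.3% of all genes were called in that comparison. Without the F68 liver at 9.32 the difference was 1.68. The effect at 24 h exceeded that at 6 h by 2.50 ± 1.02, where 51.7% of genes were called. The F68 livers are also controls of the oxaliplatin difference that chose Mt2A, so these values carry no test. The beta-actin difference between 3′ and 5′ probe sets ran from 0.641 to 0.762 in the sorafenib livers and from 0.772 to 0.849 in the F68 livers, and with it as a covariate Mt2A was higher by 2.77 ± 0.81. In the same comparison 10 of 11 tested macrophage markers and 6 of 9 endothelial markers fell, beside 48.2% of all genes and a median of -0.244. The mean macrophage level ran from 9.72 to 10.05 against 10.42 to 10.94 in F68 livers. The hepatocyte markers ran from 14.49 to 14.60 against 14.48 to 14.60. The part of all these markers was not tested.

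In kidney the 3 sorafenib rats had Mt2A values of 13.97, 14.13 and 14.28, all above the F68 kidneys. The mean of those F68 kidneys, 13.63, was the lowest of the 24 kidney groups. The difference was 0.50 ± 0.11 (1.41-fold, adjusted p = 0.0311, exact permutation p = 0.0286), and only 0.203% of genes were called there. The call was lost when 5 of the 7 kidneys were left out in turn, with differences from 0.42 to 0.573 over the 7 and adjusted p up to 0.208. Without the kidney with high albumin the difference was 0.573 (adjusted p = 0.0615), and within the groups of the same time 0.496 (adjusted p = 0.052). The beta-actin difference parted the same groups, at 0.347 to 0.41 with sorafenib and 0.438 to 0.53 with F68, and with it as a covariate the Mt2A difference was 0.472 (adjusted p = 0.0634). In the other sorafenib comparisons after D5W Mt2A was not called. The share of genes called was 12.2%, 41.9% and 7.05% in heart at 1, 6 and 24 h, 0% and 0.0731% in kidney at 1 and 6 h, and 0.0689% and 0.0344% in liver at 1 and 6 h.

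**Figure D3:**
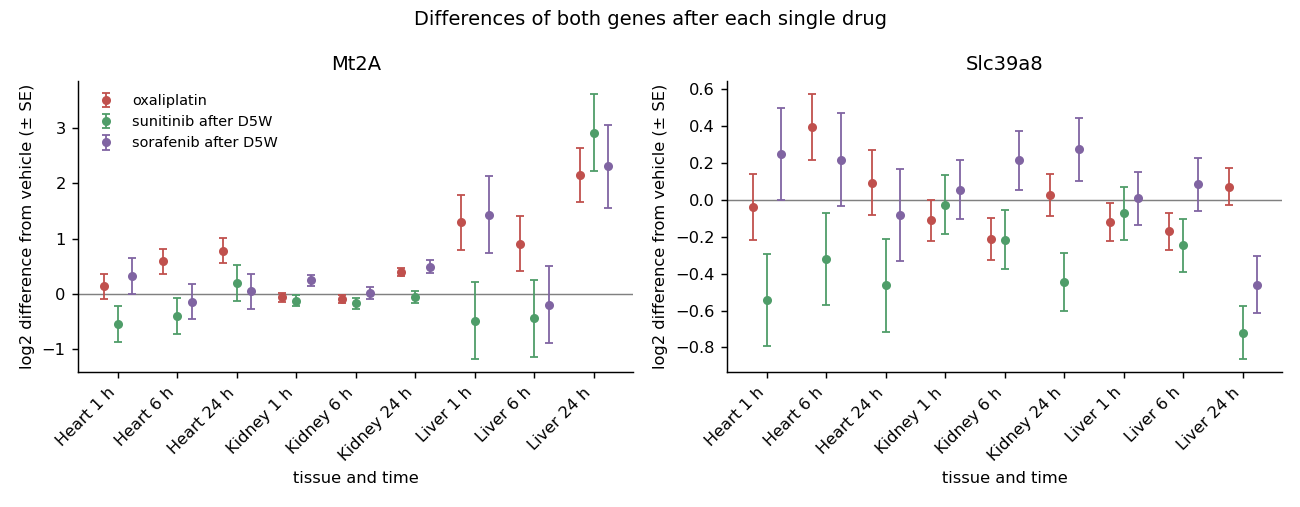
Log2 differences of Mt2A and Slc39a8 with SE in the 27 single-drug comparisons (oxaliplatin, sunitinib after D5W and sorafenib after D5W in each tissue and time). The Mt2A differences in liver at 24 h, 2.15, 2.91 and 2.31, are the largest of the plot, and the largest Slc39a8 difference is -0.72.

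After oxaliplatin neither oral drug changed either gene past the test. None of 18 comparisons called Mt2A (lowest adjusted p = 0.0859, 3 with an unadjusted p under 0.05) and none of 18 called Slc39a8 (lowest adjusted p = 0.283, 0 with an unadjusted p under 0.05). Few genes of any kind were called there at 1, 6 and 24 h: 0%, 0.00884% and 0% in heart, 0.244%, 0% and 0% in kidney, and 0%, 0% and 0% in liver with sunitinib. With sorafenib the shares were 2.15%, 7.57% and 1.72% in heart, 0.00812%, 0.544% and 0% in kidney, and 0.189%, 0.207% and 1.38% in liver. In liver at 24 h the sunitinib rats given oxaliplatin had Mt2A values of 13.33, 13.42, 14.46 and 14.60, and the sorafenib rats 11.86, 14.01, 14.25 and 14.73. Both ranges overlapped those of their oxaliplatin controls. In kidney at 24 h, oxaliplatin with sorafenib gave 14.27, 14.34, 14.40 and 14.57, the highest mean of the 24 kidney groups. Against D5W and F68 it was higher by 0.77 ± 0.11 (adjusted p = 2.96e-07, 2.69% of genes called), and the groups did not overlap. The D5W and F68 kidneys at 24 h had the lowest mean of the 24 kidney groups, 13.63. In liver the same combination was higher by 2.50 ± 0.70, with groups that overlapped, and 38.1% of genes were called. It shares the F68 controls of the choice and carries no test. The interaction of oxaliplatin with sorafenib at 24 h was -0.20 ± 0.16 in kidney (adjusted p = 0.999), so a difference of the sorafenib effect between infusions was not detectable there with these numbers of rats. In liver it was -0.84 ± 1.02, given with no test.

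Mt2A in heart also differed between the oral vehicles at 1 h and between times. At 1 h after D5W, hearts given water had 9.12, 9.50, 10.08 and 11.14, and hearts given F68 had 8.75, 8.77, 9.13 and 9.14. The F68 hearts were lower by 1.01 ± 0.32, overlapping only between 9.12 and 9.14 (adjusted p = 0.0275, exact permutation p = 0.0857, 11.6% of genes called). The call was lost when 4 of the 8 hearts were left out in turn, and without the heart at 11.14 the difference was -0.617 (adjusted p = 0.266). The vehicle hearts at 24 h were lower than those at 6 h by 0.58 ± 0.23 (adjusted p = 0.0274, 51.8% of genes called), and this call was lost without either of 2 water hearts at 6 h (adjusted p = 0.0511 and 0.0535). The beta-actin difference moved with both comparisons. At 1 h it ran from 0.458 to 0.527 with water and from 0.294 to 0.424 with F68, and its means with water and F68 were 0.316 and 0.267 at 6 h and 0.755 and 0.449 at 24 h. With it as a covariate the Mt2A differences were -0.924 and -0.815 (adjusted p = 0.0817 and 0.0565).

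Slc39a8 passed the test after 1 drug in 1 tissue. None of its 9 oxaliplatin comparisons was called, with the lowest adjusted p at 0.189, and oxaliplatin differences at 24 h were 0.09 ± 0.18 in heart, 0.03 ± 0.11 in kidney and 0.07 ± 0.10 in liver. In kidney at 6 h the 8 oxaliplatin rats had 10.50 to 10.80 and the 8 D5W rats 10.65 to 11.12, a difference of -0.21 with an exact permutation p of 0.0126. Averaged over all 4 oral doses it was -0.206 (adjusted p = 0.0347). The share of all genes called is not given for that average. Over both vehicles it was 20.6%, with no call of Slc39a8. The single call in 26 tested single-drug comparisons was a fall after sorafenib in liver at 24 h. There 67.3% of all genes were called and 48.2% fell, so a call was common. The 3 sorafenib livers had 10.56, 10.65 and 10.67, all below the F68 livers at 10.99, 11.00, 11.13 and 11.24. The difference was -0.46 ± 0.15 (adjusted p = 0.00715) beside a median of -0.244 over all genes. With arrays scaled by quantiles within liver it was -0.0848 (adjusted p = 0.659), and with arrays centred on their median -0.279 (adjusted p = 0.0997). With array weights it was -0.47 (adjusted p = 0.0537), so all 3 settings ended the call. Outside the comparisons that use the liver controls of the choice, Mt2A was called in 3 single-drug comparisons, all higher.

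The low Slc39a8 values after D5W and sunitinib came from a few arrays. In liver at 24 h the 4 arrays had 10.03, 10.17, 10.77 and 11.00, against 10.99, 11.17, 11.32 and 11.35 with water. In kidney at 24 h they had 9.86, 10.15, 11.03 and 11.28, and in heart 6.38, 6.49, 7.13 and 7.38. At 6 h 1 array of the 4 stood apart in each tissue: 9.95 in liver against 11.04 to 11.16, 9.99 in kidney against 10.85 to 11.06, and 6.43 in heart against 7.27 to 8.17. All 9 Slc39a8 differences after sunitinib and D5W were below 0, but they include the liver difference that carries no test. Those at 6 h and 24 h hold the low arrays, so the 9 are not separate observations.

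The low arrays of the 3 tissues shared their position in the array code. The last part of the code was held by 1 array per tissue at each time set, and all 96 positions had the same treatment and time in heart, kidney and liver, although the labels do not say that a position marks a rat. The same 3 positions held the 3 lowest Slc39a8 values in every tissue. They were 1 position at 6 h after D5W and sunitinib (6.43 in heart, 9.99 in kidney, 9.95 in liver) and 2 at 24 h after the same treatment (6.49, 10.15 and 10.03, and 6.38, 9.86 and 10.17). The remaining positions were at or above 6.52 in heart (median 7.37), 10.50 in kidney (median 10.90) and 10.56 in liver (median 11.07). In kidney and liver a gap thus parted these positions from the others, and in heart the next value, 6.52, lay just above 6.49. This was noticed in the data and carries no test.

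**Figure D4:**
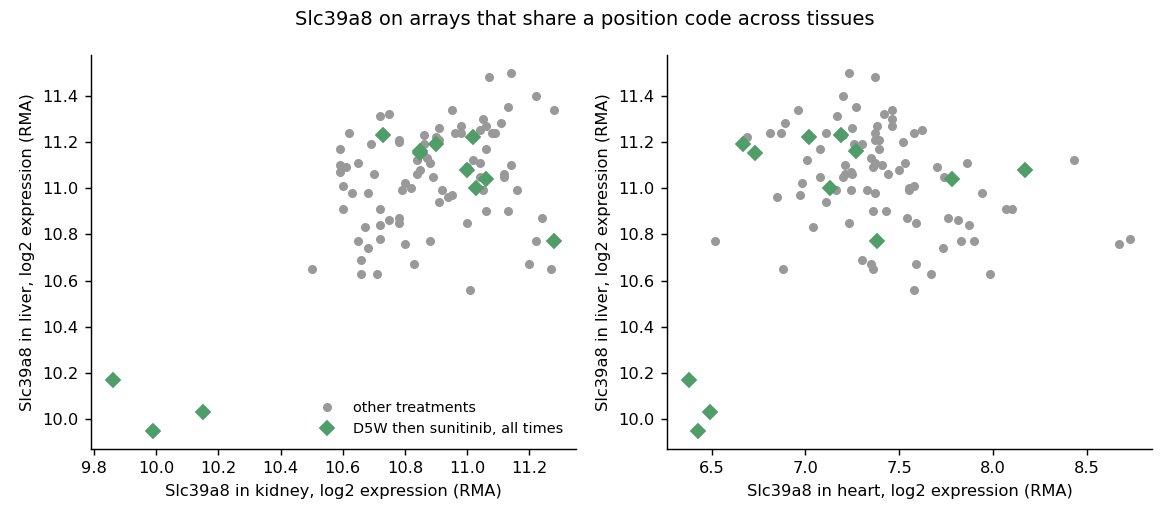
Slc39a8 log2 intensity in kidney (left) and heart (right) against liver, with each point the arrays that share 1 position of the array code. Green diamonds are D5W then sunitinib, of which 3 positions lie at 9.95 to 10.17 in liver, apart from all others at or above 10.56.

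The measured differences of the other metallothioneins in liver were small. Of the 6 listed metallothioneins, 4 were tested in liver and kidney and 2 in heart. Mt3, the brain-enriched member, rose by 0.17 ± 0.05 after oxaliplatin (adjusted p = 0.0399) and by 0.25 ± 0.08 after sorafenib (adjusted p = 0.00703) in liver at 24 h. Mt1 was dim, with means of 5.85 in liver and 6.17 in kidney beside the filter level of 6. A lack of response cannot be read from values that low. Mt1 was not called, its sorafenib difference in liver at 24 h being 0.31 (adjusted p = 0.099). Whether the Mt2A probe set also measures transcripts of its close relatives was not tested.

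Zinc importers of the ZIP family, which bring zinc into the cytosol, were mostly not called after oxaliplatin at 24 h: 2 of 11 rose in heart, 3 of 12 fell in kidney and 0 of 12 in liver. Over all genes 14.5% rose in heart, 2.19% fell in kidney and 4.69% fell in liver, so the heart count was near the background. The heart risers were Slc39a14 (0.20 ± 0.07, adjusted p = 0.0444), the closest relative of Slc39a8, and Slc39a13 (0.17 ± 0.04, adjusted p = 0.00153). The largest fall was that of Slc39a11 in kidney (-0.58 ± 0.07, adjusted p = 3.7e-10). The zinc exporter Slc30a1, itself a known MTF-1 target, rose in kidney 1 h after oxaliplatin (0.35 ± 0.09, adjusted p = 0.00692) and in heart 1 h after sunitinib (0.65 ± 0.15, adjusted p = 0.00407). The factor gene Mtf1 rose in heart 24 h after oxaliplatin (0.16 ± 0.04, adjusted p = 0.00262) and in kidney at 6 h (0.13 ± 0.05, adjusted p = 0.0344).

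After sorafenib in liver at 24 h many zinc and copper transporters fell, as did 48.2% of all genes. Of 12 ZIP genes 6 fell and 1 rose (median -0.193), of 8 ZnT exporters 7 fell (median -0.63) and of 12 copper genes 6 fell and 1 rose (median -0.34), beside the median of -0.244 over all genes. Slc30a1 changed by -0.65 ± 0.16 (adjusted p = 0.00019), Slc30a10, a manganese exporter, by -0.49 ± 0.16 (adjusted p = 0.00513) and the copper importer Slc31a1 by -0.49 ± 0.07 (adjusted p = 2.59e-09). The copper pump Atp7a changed by -0.53 ± 0.09 (adjusted p = 3.6e-07), and Atp7b, the copper pump of hepatocytes, by 0.43 ± 0.11 (adjusted p = 0.00045).

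The genes whose group means followed Mt2A most closely differed by tissue. In liver, over the 24 group means, they were Tnfrsf1a, a tumour necrosis factor receptor (r = 0.836), Mt1 (0.819), Pla2g12a (0.807), Serpina3n (0.778) and Pofut2 (0.777). In kidney they were Sharpin (0.831), Mboat7 (0.803), Peds1 (0.796), Gpnmb (0.794) and Vdr, the vitamin D receptor (0.792). In heart they were Lgals3 (0.801), Pdpn (0.743), Wfdc21 (0.729), Pcdhb19 (0.721) and Stk19 (0.713). For Slc39a8 they were Cept1 (0.832), Ttpa, the vitamin E transfer protein (0.83), Nt5e (0.828), Etfdh (0.815) and Lnx2 (0.814) in liver, and Htra1 (0.799), Hadha (0.795), Mast2 (0.761), D2hgdh (0.76) and Eml1 (0.758) in kidney. In heart they were Lrrn4 (0.822), Tubgcp6 (0.796), Zfp764l1 (0.79), Cldn12 (0.78) and Wfdc21 (0.77). These are descriptions over groups that share arrays and scaling.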

How the data were processed

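Log2 intensities of Affymetrix rat whole-genome arrays were deposited by the authors after robust multichip averaging (background correction, quantile normalization and median polish). The version, and whether tissues were scaled together, are not given in the sources used here. Probe sets with 1 gene symbol (20832 of 31099) gave 14218 genes, each by its brightest probe set in a tissue. Genes above 6 on at least 4 arrays were tested (11317 heart, 12310 kidney and 11619 liver genes). Group means were fitted per tissue with limma 3.58.1 in R 4.3.3, adjusted by Benjamini-Hochberg over all genes tested, after a check on simulated data. The members and lists were chosen with earlier results of these data known. Comparisons that chose a member, and for Mt2A those that share its 24 h vehicle livers, carry no test. Named genes were the members, the other metallothioneins, 7 metal genes, the 3 largest called genes of each list (a few of which are shown), and the 5 most alike genes. Replicates are separate rats, and their number limits the precision. Alternatives were other scalings, filters, array weights, a beta-actin covariate, same-time groups, single vehicles, exact permutation tests and each replicate left out. Promoters came from RefSeq.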

Additional observations from a re-analysis of the deposited data

Results flagged for a closer look

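In 7 of 140 sets of 4 arrays, each set being 1 gene in 1 group, 1 array stood far from the others. The rule picks about 1 in 20 sets that hold no outlier. The sets share arrays, so no cause is read from the count. Mt2A in heart at 24 h had a lowest array of 9.08 after D5W and sorafenib (others 9.24 to 9.25) and a highest of 11.34 after oxaliplatin and F68 (others 9.35 to 9.46). The position of the latter was also the highest of its 4 in kidney (14.43) and liver (14.23). Slc39a8 in heart had a lowest array of 7.17 at 1 h after oxaliplatin and water (others 7.20 to 7.21) and of 6.52 at 24 h after oxaliplatin and sunitinib (others 7.39 to 7.53). In liver it had a lowest array of 10.77 at 24 h after oxaliplatin and F68 (others 11.24 to 11.30), a lowest of 9.95 at 6 h after D5W and sunitinib (others 11.04 to 11.16) and a highest of 10.91 at 6 h after oxaliplatin and water (others 10.63 to 10.65).

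Drug effects on the members were compared between 6 h and 24 h, and called differences are given with 1 value that carries no test. The kidney oxaliplatin effect on Mt2A was larger at 24 h by 0.49 (adjusted p = 0.000595). The liver sorafenib effect after D5W was larger by 2.50 for Mt2A. This value was flagged by the same threshold, but its F68 livers are controls of the choice. It therefore carries no test and is not counted as a difference found. For Slc39a8 the liver sorafenib effect differed by -0.54 (adjusted p = 0.026), where 51.7% of all genes were called. With 1 of the 15 livers left out in turn, the Mt2A value ran from 1.87 to 3.01, and the Slc39a8 value ran from -0.605 to -0.474 and lost its call in 3. Those 3 were D5W then sorafenib replicate 2 and D5W then F68 replicate 2 at 24 h and D5W then F68 replicate 4 at 6 h. With quantile scaling and centred arrays the Slc39a8 value was -0.205 and -0.378 (adjusted p = 0.453 and 0.121).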

How the results depend on the processing

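The 27 results shown include the count of calls of each gene. Of their 293 alternative values, those with a replicate left out not counted, 265 were the same, and none changed sign. For most comparisons, the same meant the same direction and side of the threshold. For those that chose a member it meant a move smaller than the larger group SD, and for counts of calls a similar count. Mt2A comparisons that share the 24 h vehicle livers were labelled by the threshold although they carry no test. The count of Mt2A calls used here also held the liver sorafenib comparison at 24 h. These labels are therefore not read as support. Mt2A in heart 24 h after oxaliplatin was 0.721 with F68 only (adjusted p = 0.369), and 0.536 to 0.867 with a replicate left out. In kidney it was 0.329 with water only (adjusted p = 0.0806), and 0.343 to 0.445 with a replicate left out. Mt2A in kidney after D5W and sorafenib was 0.472 with the beta-actin covariate, 0.496 within the same-time groups and 0.573 without the array with the highest albumin (adjusted p = 0.0634, 0.052 and 0.0615), and 0.42 to 0.573 with a replicate left out. In liver it was 1.68 to 2.63 with a replicate left out. Slc39a8 in liver after D5W and sorafenib was -0.0848 with quantile scaling, -0.279 with centred arrays and -0.47 with array weights (adjusted p = 0.659, 0.0997 and 0.0537). Its count of calls, 1 as reported, was 0 under each of these and 2 with the same-time groups. The causes of these changes were not tested. Of 780 values for 77 other comparisons of the members, 3 were called and 17 had the other sign, where the main difference was at most 0.19. No paired analysis was possible because the replicate numbers follow the order of the deposited samples and pair no rats.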

Other observations

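Deviations from the group mean were set side by side across tissues for arrays that share a position in the array code, and 6 such relations were computed, with permutation within groups and Benjamini-Hochberg adjustment. For Mt2A over 95 positions, heart and liver had r = 0.398 (permutation p = 0.00023, adjusted p = 0.0014) and rho = 0.464 (permutation p = 1e-05, the smallest that the permutations can give, adjusted p = 6e-05), and r = 0.335 without the 2 positions farthest from the median. Heart and kidney had r = 0.353 (permutation p = 0.0038, adjusted p = 0.011), rho = 0.397 (permutation p = 0.00043, adjusted p = 0.0013) and r = 0.357 without 2 positions. Kidney and liver had r = 0.186 (permutation p = 0.16, adjusted p = 0.24), rho = 0.207 (permutation p = 0.08, adjusted p = 0.12) and r = 0.137. For Slc39a8 over 92 positions, without the 3 low ones that stand apart, kidney and liver had r = 0.288 (permutation p = 0.023, adjusted p = 0.045), rho = 0.231 (permutation p = 0.057, adjusted p = 0.11) and r = 0.252. Its heart and kidney, and heart and liver, relations had r = -0.0946 and -0.104 (permutation p = 0.38 and 0.44, adjusted p = 0.44 for both), rho = -0.135 and -0.0749 (permutation p = 0.23 and 0.54) and r = -0.0707 and -0.14 without 2 positions. The 2 arrays left out for their tissue markers also share 1 position.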
